A study of Homo sapiens with 6 samples.

Results

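HOX genes code for homeodomain transcription factors and lie in 4 clusters, HOXA to HOXD, on different chromosomes. The HOX genes described here are those that the annotation of the array's probe sets gave as the only symbol, and they were 27 genes of 18132 tested. RefSeq lists 39 human HOX genes, and the other 12, of which 10 belong to HOXA, are not analysed here. The 27 were HOXA2, all 10 HOXB genes, all 9 HOXC genes and 7 of the 9 HOXD genes. Each gene was read from the probe set with the highest mean over 6 arrays.

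The arrays held RNA of 786-O, an established line of human tumour cells that derives from a renal carcinoma of the clear cell type. A small hairpin RNA (shRNA), a tool that depletes the transcript it is matched to, was brought in by lentivirus. The control group is 3 arrays labelled shNC, and the other group (shPLEKHO1) is 3 arrays of cells whose shRNA targets PLEKHO1, a gene for a membrane-binding adaptor of casein kinase 2 and SMURF1. The treatment text names lentivirus with the PLEKHO1 shRNA for all 6 samples, so the control is known from its title and genotype, and what its vector carried is not described. Neither uninfected cells, a rescue nor a second shRNA are among the samples used here, and the time after infection is not given. No label tells whether replicates are different cultures, so p-values reflect array-to-array spread alone, possibly technical.

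In the embryo, HOX genes are switched on along the body axis in the order in which they lie in their cluster: low-numbered genes act towards the head and high-numbered genes towards the tail. Genes with the same number in different clusters are paralogues that arose from a common ancestor. Adult cells, kidney epithelium among them, keep part of this positional pattern, and the paralogues of group 11 are needed for the kidney to form. HOX proteins bind DNA together with cofactors of the TALE class, such as PBX and MEIS proteins. Polycomb complexes keep HOX genes silent, Trithorax complexes keep them active, and retinoic acid switches on genes at the low-numbered end.

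Median intensity per array was 55.7 to 57.1, and across genes log2 values correlated at 0.998 to 0.999 within a group and at 0.989 to 0.990 between groups. PLEKHO1 intensity was 135, 143 and 126 with shNC and 110, 116 and 97.4 with shPLEKHO1, a fall of 19.9% (limma adjusted p = 0.0123). By exact permutation of the arrays, two-sided, p was 0.1, the smallest value that 3 against 3 can give, and this held for each of the 10 HOX genes called below as well. Of 11 markers of kidney epithelium and renal carcinoma, 8 were measured, and all 8 exceeded the background probe set with 20 G or C bases on every array of at least 1 group. Of the 8, 3 rose (KRT8, KRT18 and EGLN3) and 3 fell (PAX2, PAX8 and CDH6), 75% called against 34.1% of all genes. CDH6 changed most, with a log2 difference of -0.96. The summed intensity of the 8 was 19483 to 19747 with shNC and 20941 to 21328 with shPLEKHO1. Most of that sum was VIM, which did not pass, at 14741 with shNC and 15448 with shPLEKHO1, so the sum does not show the falls. The kidney transcription factor PAX8, 1 of those that fell, was at 424 ± 42.4 with shNC and 354 ± 6.11 with shPLEKHO1 (SD, n = 3). Of 16 measured markers of blood, endothelium, fibroblasts, liver and neurons, 4 exceeded that background, 1 rose and 1 fell, and none was at 0. The part of other cells in the results was not tested, and in bulk RNA fewer cells of a type cannot be told apart from less RNA per cell.

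Sequence before the transcription start is shown first for HOX genes that differed between the groups and have an entry in the RefSeq promoter table. The table (GRCh38.p14) held 10 of the 27 genes. HOXA2 (chr7:27102684-27102933, minus strand), HOXC4 (chr12:54016638-54016887, plus strand) and HOXD10 (chr2:176116528-176116777, plus strand) were lower with shPLEKHO1, and HOXD4 (chr2:176151300-176151549, plus strand) was higher. Each window is the 250 bases upstream of the annotated start, and the window of HOXC4 is also that of HOXC5. Capitals mark matches on either strand to the 7 motifs spelled out in the next paragraph.
HOXA2: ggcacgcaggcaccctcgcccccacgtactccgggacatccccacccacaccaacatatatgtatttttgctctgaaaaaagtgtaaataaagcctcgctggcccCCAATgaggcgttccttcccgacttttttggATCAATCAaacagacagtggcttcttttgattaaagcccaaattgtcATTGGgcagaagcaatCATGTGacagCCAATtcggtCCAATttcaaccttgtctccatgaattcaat
HOXC4: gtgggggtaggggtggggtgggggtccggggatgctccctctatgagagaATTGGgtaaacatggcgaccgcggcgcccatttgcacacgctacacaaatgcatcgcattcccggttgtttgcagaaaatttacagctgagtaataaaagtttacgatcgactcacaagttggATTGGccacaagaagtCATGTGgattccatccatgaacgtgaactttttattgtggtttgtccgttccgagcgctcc
HOXD10: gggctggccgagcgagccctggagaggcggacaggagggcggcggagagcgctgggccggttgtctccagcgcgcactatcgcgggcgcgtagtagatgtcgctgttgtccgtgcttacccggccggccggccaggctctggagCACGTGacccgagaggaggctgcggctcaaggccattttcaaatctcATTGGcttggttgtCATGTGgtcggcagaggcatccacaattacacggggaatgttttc
HOXD4: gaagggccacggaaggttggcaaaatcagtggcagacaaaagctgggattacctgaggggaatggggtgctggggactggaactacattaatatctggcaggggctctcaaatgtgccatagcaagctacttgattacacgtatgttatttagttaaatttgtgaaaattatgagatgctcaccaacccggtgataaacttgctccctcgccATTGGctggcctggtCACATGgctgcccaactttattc

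The CCAAT box, to which the factor NF-Y is known to bind, was found in 8 of the 9 distinct HOX windows in the table and in 32.04% of all 34943 promoter windows of that length. The window of HOXD8 was the exception. CATGTG, an E-box, was found in 5 of the 9 HOX windows and in 9.447% of all windows. Its palindromic form CACGTG was found in 3 of 9 and in 6.322%. In all 4 windows shown, and in that of HOXB1, a CCAAT box on the minus strand was followed towards the start by an E-box of the first form. This box began 67 bases before the start in HOXA2, 77 in HOXC4, 59 in HOXD10 and 38 in HOXD4. The E-box began 51, 61, 45 and 23 bases before it, in HOXD4 on the minus strand. The arrangement was shared by genes that fell, by the gene that rose and by HOXC5 and HOXB1, which did not pass. Its share among all promoter windows was not counted. The core of the joint HOX and PBX site, TGATNNAT, was found in HOXA2 and HOXB1, in 2 of 9 windows against 6.491% of all. The TATA box, TATAAA, was found in HOXD13 alone (10.75% of all). The nuclear receptor motif AGGTCA was found in 0 of 9 windows (12.09% of all), and so was the homeodomain core, TAATTA (4.35%). Both E-box forms were added to the search after the sequences had been read, so their counts in these windows do not test an excess. A match is a description of letters only.

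Which HOX genes the cells express was read for each gene against background probe sets, which match no human transcript and are grouped by the number of G or C bases in the probe. Brightness is not compared between genes, since probe sets differ in how strongly they bind. Background itself rose with G and C content: with shNC it averaged 13.3 at 16 such bases, 55.3 at 20, 163 at 22 and 426 at 24. The G and C content of the HOX probes is not given in the sources used here, so the count of expressed genes depends on the level chosen. Against the 95th percentile of all background probe sets, 1 of 27 genes was above on every array of a group, and this was HOXD10, with shNC alone. Against 16, 18, 20 and 22 bases the counts were 26, 22, 21 and 8 of 27, levels that were added after the data were seen.

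The level at 20 bases, 50.2 to 62.4 over the arrays, lay near the median intensity of an array, 55.7 to 57.1. The share of all genes above it was not counted, so the counts here are not set against one. Against this level, all 11 genes of groups 4 to 8 were above on every array of at least 1 group. So were 4 of 5 genes of groups 1 to 3 and 6 of 11 genes of groups 9 to 13. By cluster, 9 of 10 HOXB genes, 6 of 9 HOXC genes and 5 of 7 HOXD genes were above, and HOXA2 was too. Taken by group, 21 genes were above with shNC and 19 with shPLEKHO1. HOXC4 and HOXB13 were above with shNC alone. Against the level at 22 bases, 6 of the 8 genes left were HOXB genes (HOXB2, HOXB3, HOXB4, HOXB6, HOXB7 and HOXB9), with HOXC6 from HOXC and HOXD10 from HOXD. By position these were 2 of 5 genes of groups 1 to 3, 4 of 11 of groups 4 to 8 and 2 of 11 of groups 9 to 13.

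The genes that were not above the lower background levels were the following. HOXD12 read 6.43, 7.97 and 6.85 with shNC and 6.71, 6.82 and 7.51 with shPLEKHO1, below the background at 16 bases on every array. HOXC12 read 14.5 to 16.6 with shNC and 13.2 to 16.1 with shPLEKHO1. HOXD13, which shapes the digits, was at 17.4 ± 0.866 and 17.2 ± 0.840 (SD, n = 3). HOXC11, the only group 11 gene among the 27, was at 26.3 ± 3.59 with shNC and 24.8 ± 1.87 with shPLEKHO1 (SD, n = 3). HOXD11 was not analysed as a gene, and a brighter probe set that it shares with HOXD10 is given below. HOXB1, which patterns the hindbrain, was at 26.1 ± 2.56 and 30.4 ± 0.39. These 5 genes were not above the background at 18 bases in either group, and for none of them did the difference between groups pass the test. HOXC13, a gene of hair and nail formation, was at 46.2 ± 0.879 and 48.4 ± 2.81, above that level but not above the level at 20 bases.

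**Figure D1:**
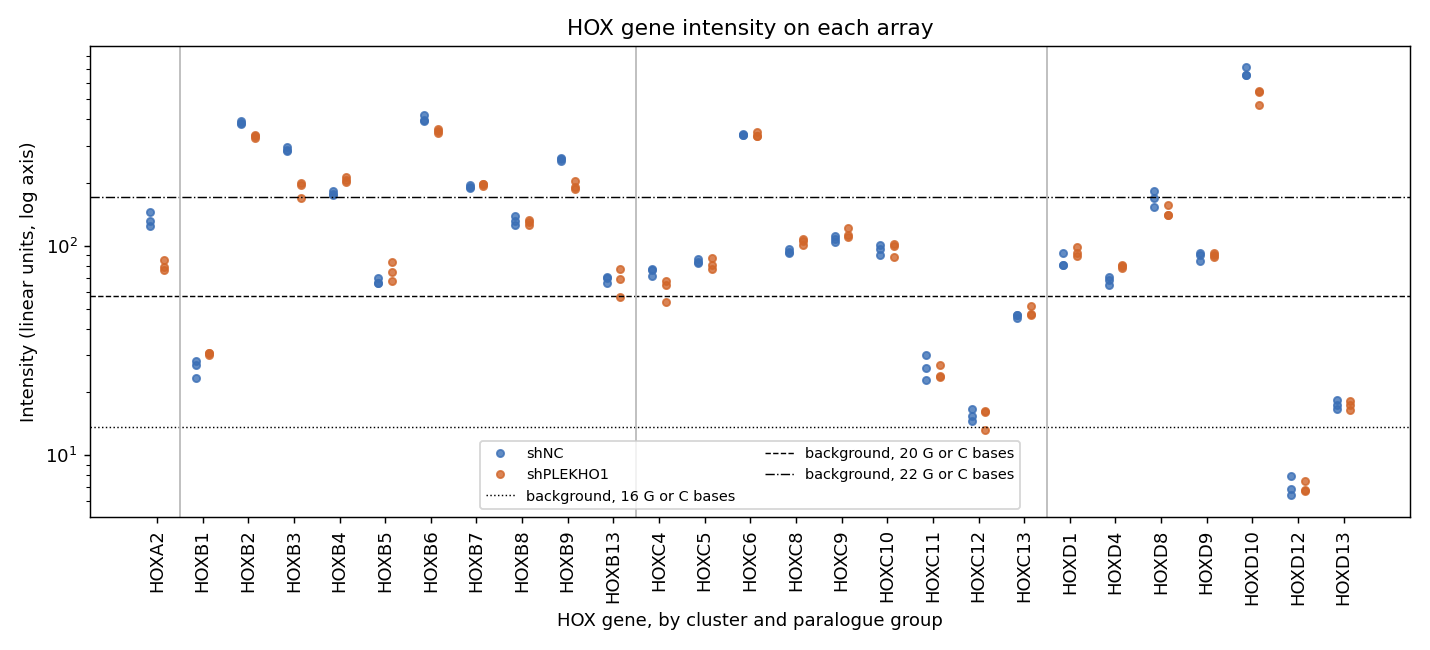
Intensity of each HOX gene (log axis) on the 3 shNC arrays and the 3 shPLEKHO1 arrays, 1 point per array, ordered by cluster and paralogue group. Horizontal lines are the mean over 6 arrays of the background probe sets with 16, 20 and 22 G or C bases. HOXD12 lies below all 3 lines, and 8 genes have a group that lies above the highest of them.

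With shPLEKHO1, 7 of the 27 HOX genes fell and 3 rose. HOXA2 and HOXB3 fell most, by 39.5% and 34.1%, followed by HOXB9, HOXD10, HOXC4, HOXB2 and HOXB6. HOXB4, HOXD4 and HOXC8 rose, by 17.0%, 16.9% and 11.5%. No HOX gene differed by 2-fold or more. These calls are adjusted p under 0.05 in limma, fitted to log2(intensity + 1) over all 18132 genes. Of all genes tested 34.1% were called, against 10 of 27 HOX genes (37.0%), so the share of HOX genes called was near the background. Falls were called in 16% of all genes and rises in 18.1%. The median log2 difference, shPLEKHO1 minus shNC, was -0.02 over the HOX genes and 0.01 over all genes, and the median size without sign was 0.13 and 0.12.

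For a background at like intensity, 7 of the 12 HOX genes with a mean of at least 100 were called, and 56.8% of all 8351 such genes. Of the 15 HOX genes with a mean under 100, 3 were called, and 14.7% of all 9781 such genes. This split was chosen after the values were seen, and the difference between its sides was not tested.

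**Figure D2:**
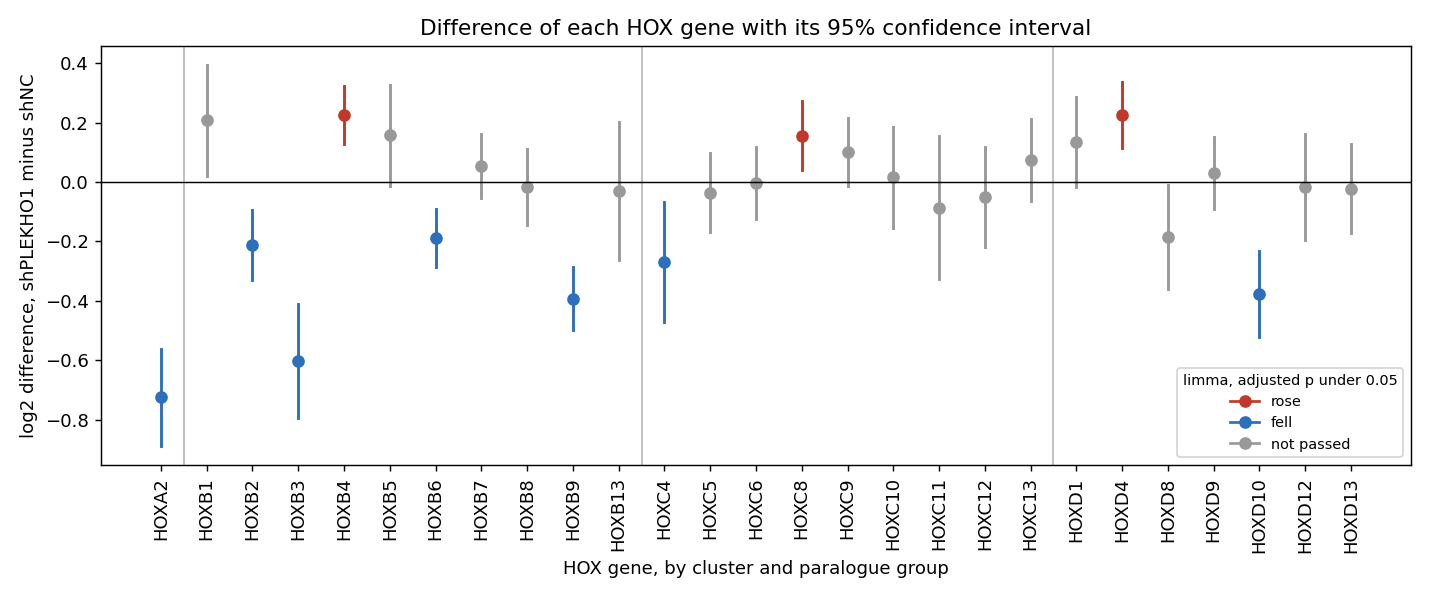
Log2 difference of each HOX gene, shPLEKHO1 minus shNC, with its 95% confidence interval from limma (3 arrays per group). Blue genes fell, red genes rose and grey genes did not pass. HOXA2 at -0.73 and HOXB3 at -0.60 lie lowest, and HOXB4 and HOXD4 lie highest among the called genes, at 0.23 each.

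HOXA2, which sets the identity of the second branchial arch and of the hindbrain, read 132, 124 and 144 with shNC and 78.6, 76.4 and 84.9 with shPLEKHO1. Every shPLEKHO1 array was lower than every shNC array. The fall was 1.65-fold (log2 difference of -0.73 ± 0.07 SE, n = 3 per group, limma adjusted p = 0.00013). Its dim second probe set fell too (-0.21), and as the mean of both the difference was -0.47. HOXA2 is the only gene of its cluster read here, so nothing is given for its neighbours.

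The HOXB cluster held 5 of the 10 calls. These were 50% of its 10 genes, against 34.1% of all genes and 56.8% of all genes with a mean of at least 100. HOXB2 and HOXB3, which pattern the hindbrain, both fell. HOXB3 read 284, 294 and 285 with shNC and 199, 169 and 195 with shPLEKHO1, without overlap. Its log2 difference was -0.60 ± 0.08 (limma adjusted p = 0.000799), and 3 of its 4 probe sets fell, with differences from -0.60 to -0.15 over the 4 and -0.38 for their mean. The name of the probe set read marks it as one that can match further transcripts, as do those of HOXD8, HOXD9 and HOXD13, and HOX paralogues resemble each other in sequence.

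HOXB2 read 380, 395 and 386 with shNC and 333, 338 and 327 with shPLEKHO1. The groups did not overlap, and the log2 difference was -0.21 ± 0.05 (limma adjusted p = 0.013). HOXB6 read 418, 395 and 396 with shNC and 352, 362 and 345 with shPLEKHO1, again without overlap. Its log2 difference was -0.19 ± 0.04 (limma adjusted p = 0.00978).

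HOXB9, which acts in the patterning of the thorax, read 259, 254 and 261 with shNC. With shPLEKHO1 it read 191, 203 and 186, below all shNC arrays. It was 1.31-fold lower (log2 difference of -0.39 ± 0.05, limma adjusted p = 0.000333). HOXB2, HOXB6 and HOXB9 had 1 probe set each.

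HOXB4, known for the expansion of blood stem cells, went the other way. It read 182, 175 and 177 with shNC and 201, 212 and 206 with shPLEKHO1, higher on all 3 arrays. The log2 difference was 0.23 ± 0.04 (limma adjusted p = 0.00377), and its dimmer probe set was at 0.10 and did not pass. HOXB3 and HOXB4 are neighbours in the cluster, so a fall and a rise stood side by side there. Among the 21 pairs of HOX genes that are adjacent in a cluster and both measured, both members were called in 2: HOXB2 with HOXB3, which both fell, and HOXB3 with HOXB4.

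The other 5 HOXB genes did not pass. HOXB7 was at 191 ± 4.07 with shNC and 195 ± 2.51 with shPLEKHO1, and HOXB8 at 131 ± 6.30 and 129 ± 3.57 (SD, n = 3). Their 95% confidence intervals, on the log2 scale, ran from -0.05 to 0.16 and from -0.14 to 0.11. HOXB5 was at 67.4 ± 1.99 and 75.2 ± 7.69, with all 3 probe sets between 0.11 and 0.16 and none past the threshold. HOXB13, the last gene of the cluster and known from the prostate, was at 69.0 ± 2.40 and 67.7 ± 10.2, and none of its 4 probe sets passed. HOXB1, given above among the dim genes, had a log2 difference of 0.21 (interval 0.02 to 0.39, limma adjusted p = 0.0884). Its dimmer probe sets were at -0.04 and -0.01 and did not pass.

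In the HOXC cluster 2 of 9 genes passed, HOXC4 and HOXC8, both close to the threshold. HOXC4 read 71.8, 76.5 and 77.4 with shNC and 65.1, 53.8 and 68.0 with shPLEKHO1, without overlap. Its log2 difference was -0.27 ± 0.09 (limma adjusted p = 0.0473). HOXC8, which acts in motor neurons of the forelimb level, read 92.4, 93.3 and 96.0 with shNC and 107, 101 and 106 with shPLEKHO1. All shPLEKHO1 arrays were higher, and the log2 difference was 0.16 ± 0.05 (limma adjusted p = 0.0464).

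Neither call held throughout. HOXC4 did not pass when any 1 array other than shPLEKHO1 replicate 3 was left out (adjusted p of 0.0676 to 0.125), and without shPLEKHO1 replicate 2 its difference was -0.17. HOXC8 did not pass when any 1 array other than shPLEKHO1 replicate 2 was left out (0.0894 to 0.142), with median centring (0.0535), without normalization between arrays (0.0603) or with a variance trend (0.0912). Over all alternatives limma adjusted p ranged from 0.0254 to 0.125 for HOXC4 and from 0.0176 to 0.142 for HOXC8.

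HOXC6 read 338, 340 and 336 with shNC and 347, 332 and 332 with shPLEKHO1, in overlapping ranges. Its interval ran from -0.12 to 0.12 on the log2 scale. HOXC5 was at 83.9 ± 1.66 and 81.9 ± 5.13 (interval -0.17 to 0.10). RefSeq gives HOXC4 and HOXC5 the same promoter window, and HOXC4 passed while HOXC5 did not; the difference between them was not tested. HOXC9 was at 107 ± 3.54 and 115 ± 5.98 and HOXC10 at 95.5 ± 4.92 and 96.6 ± 7.15, and neither passed.

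Of 7 HOXD genes, HOXD10 fell and HOXD4 rose. HOXD10, which acts in the limb and in lumbar motor neurons, read 710, 651 and 650 with shNC. With shPLEKHO1 it read 467, 547 and 538, below all shNC arrays. It was 1.30-fold lower (log2 difference of -0.38 ± 0.06, limma adjusted p = 0.00214), and both of its probe sets fell. A further probe set, annotated to HOXD10 and HOXD11 together, was at 0.05 ± 0.05 and did not pass (limma adjusted p = 0.498). It read 373, 371 and 380 with shNC and 370, 398 and 397 with shPLEKHO1, above the background at 22 bases on every array. Which of the 2 genes it reads was not tested, and HOXD11 is not among the 27 genes.

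HOXD4 read 68.3, 64.9 and 70.4 with shNC and 79.4, 80.6 and 77.8 with shPLEKHO1, without overlap. The log2 difference was 0.23 ± 0.05 (limma adjusted p = 0.00737), from a single probe set. HOXD1 was at 84.7 ± 6.42 and 93.0 ± 5.11, and HOXD9 at 88.7 ± 4.22 and 90.3 ± 1.56. Neither passed by the probe set read, but the dimmer probe set of HOXD9 fell (-0.19, limma adjusted p = 0.0236).

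HOXD8 read 181, 152 and 169 with shNC and 140, 140 and 157 with shPLEKHO1, so the groups overlapped. Its log2 difference was -0.19 ± 0.07 (interval -0.36 to -0.01, limma adjusted p = 0.0991). The mean of its 2 probe sets did pass (limma adjusted p = 0.0156), and it also passed under a variance trend (0.0487) and when shPLEKHO1 replicate 3 was left out (0.0423). Over all alternatives p ran from 0.0156 to 0.255.

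Background probe sets rich in G and C also read higher in the shPLEKHO1 arrays. With 20, 22, 24 and 25 such bases their log2 differences were 0.12, 0.16, 0.19 and 0.18, and the last passed (limma adjusted p = 0.0374). Those with 16 bases or fewer differed by at most 0.05. HOXB4 and HOXD4 rose by 0.23 each, with 95% confidence intervals from 0.13 to 0.32 and from 0.11 to 0.34. Both intervals include the differences at 22, 24 and 25 bases. With shNC those background probe sets averaged 163, 426 and 1926, while HOXB4 averaged 178 and HOXD4 67.9. The difference at 20 bases lies within the interval of HOXD4 but not within that of HOXB4. HOXC8 rose by 0.16, with an interval from 0.04 to 0.27. The part of background in the HOX differences was not tested.

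By position, 3 of 5 genes of groups 1 to 3 fell and 0 rose. In groups 4 to 8, 2 of 11 genes fell and 3 rose, and in groups 9 to 13, 2 of 11 fell and 0 rose. Over all genes 16% fell and 18.1% rose. Calls were also rarer among dim genes, at 14.7% of all genes with a mean under 100 and 56.8% of the others. HOXC11, HOXC12, HOXD12 and HOXD13, which were not above the background at 18 bases, all belong to groups 9 to 13. Positions were not matched for intensity, and the difference between them was not tested. Paralogues did not share a direction in group 4, whose 3 members were all called: HOXB4 and HOXD4 rose and HOXC4 fell. In group 2 HOXA2 and HOXB2 both fell. In group 9 HOXB9 fell while HOXC9 and HOXD9 did not pass, and in group 10 HOXD10 fell while HOXC10 did not. None of the 6 genes of groups 11 to 13 passed. On the normalized log2 scale the groups did not overlap in 13 of 27 HOX genes (48.1%), against 44.9% of all genes. HOXB7 and HOXC9 are among the 13, although their intensity before normalization did overlap.

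Probe sets of a gene mostly moved together where a change was called. The 27 genes had 47 probe sets, of which 12 fell and 2 rose. Of all 44988 probe sets 33.0% passed, 15.7% as falls and 17.3% as rises. No HOX gene had probe sets past the threshold in both directions. Of 13 genes with several probe sets, all probe sets of 7 had the same sign. HOXC8 did not pass in this fit by either probe set (limma adjusted p = 0.0564 and 0.068). That fit differs from the fit over genes in its variance estimates and in the number of tests adjusted for.

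**Figure D3:**
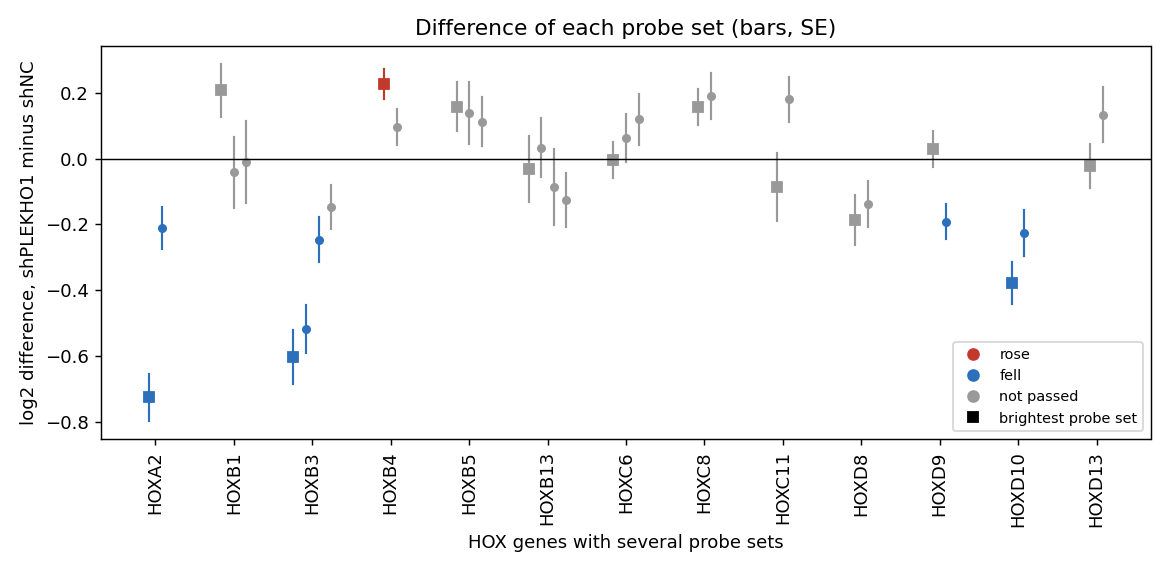
Log2 difference of every probe set of the 13 HOX genes with several probe sets, shPLEKHO1 minus shNC, with SE (3 arrays per group). Squares are the brightest probe set of a gene. Both probe sets of HOXA2 and HOXD10 and 3 of 4 of HOXB3 lie in blue, as fallen.

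HOX proteins choose their sites with TALE cofactors, and of 11 listed TALE genes 10 were measured, of which 3 rose and 1 fell (median 0.06). The share called was 40%, against 34.1% of all genes. PBX3 was at 458 ± 40 with shNC and 667 ± 6.04 with shPLEKHO1, a 1.46-fold rise (log2 difference of 0.54 ± 0.06, limma adjusted p = 0.000175), and all 3 of its probe sets rose. PBX2 rose by 2 of 3 probe sets (0.31 ± 0.05). PBX4 fell (-0.22 ± 0.05) but did not pass as the mean of its probe sets (-0.10, limma adjusted p = 0.217, range 0.007 to 0.217). TGIF1, a repressor of the same class, rose (0.16 ± 0.05), a call lost in 6 of 14 alternatives (limma adjusted p from 0.00125 to 0.0885). They were without shNC replicates 2 or 3, without shPLEKHO1 replicates 2 or 3, median centring and a fit by replicate number. MEIS1, MEIS2 and MEIS3 did not pass by the probe set read.

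Of 30 listed genes of the Polycomb repressive complexes 26 were measured, of which 7 rose and 6 fell (median -0.05). These calls were 50% of the list, against 34.1% of all genes and 56.8% of all genes with a mean of at least 100. PCGF5, a subunit of variant complexes, was 1.65-fold higher (0.72 ± 0.05), and 3 of its 5 probe sets rose; the mean of its probe sets differed by 0.46. KDM2B, which recruits such complexes to CpG islands, was 1.73-fold lower (-0.79 ± 0.06), and 3 of its 5 probe sets fell, with -0.47 as the mean of its probe sets. PCGF2 (-0.55 ± 0.05, 1 of 3 probe sets, but -0.18 as their mean) and the histone-binding protein RBBP4 (-0.41 ± 0.05, both probe sets) fell. Members therefore moved in both directions.

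Of 23 listed Trithorax and HOX activating factors 22 were measured, of which 8 fell and 1 rose (median -0.03). Over all genes 16% fell and 18.1% rose. The share called was 40.9%, against 34.1% of all genes and 56.8% of all genes with a mean of at least 100. Of those 8351 brighter genes, 2186 fell and 2558 rose. Of the 9 calls in the list 5 held under all 14 alternatives, those of KMT2A, MEN1, WDR5, RBBP5 and CTCF. CTCF, which sets boundaries between active and silent parts of HOX clusters, was 1.53-fold lower by its single probe set (-0.62 ± 0.05). RBBP5, a core subunit of the histone H3 methyltransferase complexes, was 1.49-fold lower (-0.58 ± 0.06), and 3 of 4 probe sets fell; over the mean of its probe sets the difference was -0.36. The methyltransferase KMT2A (-0.23 ± 0.05, 4 of 8 probe sets) and its partner MEN1 (-0.25 ± 0.05) fell as well. The single rise was DPY30 (0.18 ± 0.04), named because it was the only one; it did not pass without shNC replicate 3, without shPLEKHO1 replicate 3 or with a fit by replicate number (limma adjusted p from 0.000213 to 0.058 over the alternatives).

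Of 18 listed genes of the retinoic acid route 16 were measured, of which 5 fell and 2 rose (median 0.00). Calls made up 43.8% of the list, against 34.1% of all genes. RXRA, the partner of the retinoic acid receptors, was at 307 ± 9.68 with shNC and 140 ± 4.12 with shPLEKHO1, a 2.17-fold fall (-1.12 ± 0.05, limma adjusted p = 5.62e-06), and both of its probe sets fell, with -0.73 as their mean. Of the enzymes that make retinoic acid, ALDH1A1 fell by all 3 probe sets (-0.82 ± 0.05) and ALDH1A3 rose by 4 of 5 (0.79 ± 0.06). DHRS3, a retinaldehyde reductase, fell (-0.73 ± 0.07, 2 of 3 probe sets, -0.47 as their mean). RARA, RARB and RARG, the receptors themselves, did not pass by the probe set read.

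Of 13 ParaHox and other relatives outside the clusters that were measured, 0 passed in limma and 0 had an unadjusted p under 0.05. No value of theirs exceeded 72.0. Calls made up 34.1% of all genes and 14.7% of all genes with a mean under 100, and the difference from these shares was not tested. EVX1 read 56.6 to 68.5 with shNC and 65.5 to 72.0 with shPLEKHO1. On every array it was above the background probe set with 20 G or C bases. The members with the smallest p were EVX1 (0.13 ± 0.08) and GSX1 (0.09 ± 0.06). Of 18 listed long noncoding RNAs of the clusters 1 was measured, HOXB-AS3, which lies antisense in the HOXB cluster. It read 40.5, 38.3 and 37.3 with shNC and 38.5, 31.4 and 35.9 with shPLEKHO1, in overlapping ranges (limma adjusted p = 0.202).

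**Figure D4:**
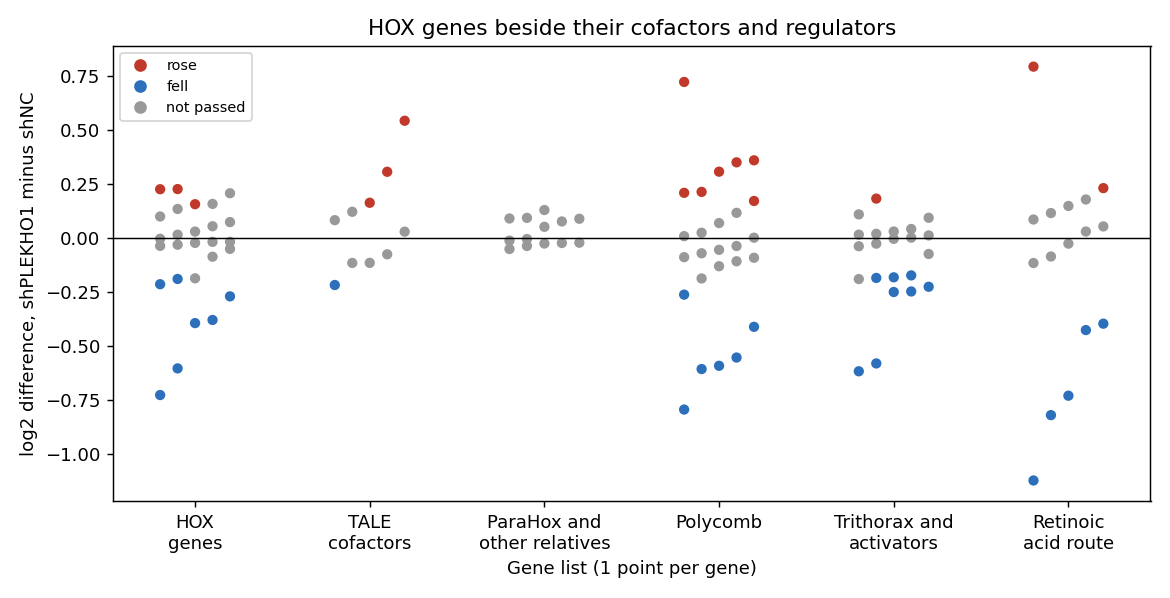
Log2 difference, shPLEKHO1 minus shNC, of the 27 HOX genes and of the measured genes of 5 related lists, 1 point per gene, spread sideways for visibility. Blue points fell, red points rose and grey points did not pass. RXRA at -1.12 lies lowest, and all 13 ParaHox genes and relatives are grey.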

How the data were processed

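Per the labels' protocols, RNA came from Trizol extraction and was labelled with biotin, and Affymetrix Expression Console is the software that the submitters' processing notes name. Which version and algorithm it ran, and whether arrays were scaled together, is not given in the sources used here. What the authors deposited are linear intensity values for each probe set, from 4.33 to 19770. Background that remains in them understates folds of dim genes, as does the pseudocount. The members, lists and tests were chosen with earlier results of these data known.

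Of 49395 probe sets, 1832 had several symbols and 2569 had none. The 102 control probe sets, a few of which carry a symbol, were left out too. The 44988 others were read as log2(intensity + 1), quantile normalized over all probe sets, and the probe set with the highest mean stood for a gene. Symbols were updated through RefSeq (GRCh38.p14) for 44961. The 3 shPLEKHO1 and 3 shNC arrays were compared by limma 3.58.1 (lmFit, eBayes; R 4.3.3) with no covariate. P-values were adjusted by Benjamini and Hochberg's method across 18132 genes, and 0.05 was the threshold. The fit was tested on simulated data with independent noise on each array, which cannot show whether the replicates are different cultures. SE is of the log2 difference. The number of arrays limits precision.

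Genes are named by a rule: PLEKHO1, every HOX gene, and the 4 called genes of each list that had the lowest p, or the 2 lowest where no gene was called. Other names were chosen after their values were seen. Alternatives were median centring, no normalization between arrays, a pseudocount of 16, leaving out the dimmest 30% of genes, the mean of a gene's probe sets, array weights, robust fitting with a variance trend, a block for the replicate number, and 5 arrays in place of 6. Background levels by G and C content and probe sets with several symbols were added after seeing the data. Promoter windows are the bases before the start, without those after it.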

Additional observations from a re-analysis of the deposited data

Results flagged for a closer look

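A probe set annotated to HOXD3 and HOXD4 together was left out of the gene comparison, since it has 2 symbols, but carried a difference. It read 51.2, 43.3 and 44.2 with shNC and 59.1, 75.4 and 64.7 with shPLEKHO1, without overlap. The log2 difference was 0.51 ± 0.10, a 1.43-fold rise (limma adjusted p = 0.00534 in a fit over all annotated probe sets), larger in value than that of the probe set of HOXD4 alone (0.23). The difference between them was not tested. No group had more than 3 arrays, so no single array was tested as standing apart.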

How the results depend on the processing

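Over 14 alternatives, 8 of the 10 HOX calls were kept in every one, and no called HOX gene changed sign. HOXC4 and HOXC8 were lost in some, and HOXB1 passed with median centring (limma adjusted p = 0.0435; highest over the alternatives 0.688). The number of HOX genes called was 8 to 11, and 8 to 10 when 1 array was left out. PLEKHO1 kept its fall, from -0.37 to -0.25 with 1 array left out. The count of HOX genes above background, 1 at the 95th percentile, was 0 against the highest background probe set, 25 against 2 times the median one, and 26, 22, 21 and 8 against the levels with 16, 18, 20 and 22 G or C bases. With the replicate number as a replicate block, 8 HOX genes and 5244 genes in all were called, HOXC4 (limma adjusted p = 0.0661) and HOXC8 (0.103) no longer passed, and the Trithorax and activating list fell from 9 calls to 5; the cause was not tested. Same-numbered arrays did not deviate together (correlations of -0.16, -0.16 and -0.05), so the numbers are not taken as pairs. Dim genes near background, such as HOXD12 and HOXC12, have differences that these arrays could understate.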
